A study of Mus musculus with 40 samples.

Results

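The contrast described here asks how far the difference between ZT16 and ZT4 in mouse gastrocnemius depended on when the animals could use a running wheel. It was computed for each gene as the DA ZT16 minus DA ZT4 difference less the CTRL ZT16 minus CTRL ZT4 difference, on the log2 scale, and its libraries were chosen by their labels alone. They are 16 of the 40 mouse muscle libraries of the series, 4 in each of 4 groups. The DA mice, C57BL/6 with a running wheel open to them in the daytime, were sampled at zeitgeber time (ZT, hours after lights on) 16 and at ZT4. The CTRL mice were C57BL/6 with the wheel open at night, and were also sampled at ZT16 and at ZT4. All 4 groups had a wheel, no gastrocnemius group without one was analysed here, and the labels give no allele or other agent. Distance run, feeding, the hours of access and how long a schedule lasted are not among the data used here. Zeitgeber time places ZT4 in the light and ZT16 in the dark, so the wheel is read as open for DA ZT4 and CTRL ZT16 and as closed for DA ZT16 and CTRL ZT4. A gene that is high whenever the wheel is open therefore has a negative interaction. A gene with the same ZT16 to ZT4 difference under both schedules has an interaction near 0.

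Nearly every cell carries a circadian clock in which the transcription factors BMAL1 (gene Arntl) and CLOCK switch on their own repressors, the PER and CRY proteins, and the nuclear receptors REV-ERB alpha and beta (Nr1d1, Nr1d2), which in turn silence Arntl. Clocks in peripheral tissues such as muscle take timing cues from feeding, hormones and activity as well as from the light-set clock in the brain. Running itself acts on muscle genes through calcium, mechanical load, heat and hormones, and among its best known targets are the NR4A nuclear receptors and the coactivator PGC-1 alpha (Ppargc1a), which raises genes of mitochondria. Mice normally run and eat at night.

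Totals ran from 45010631 to 70033331 estimated counts per library, and 14523 genes passed the filter on low counts. The profile was that of skeletal muscle, without telling gastrocnemius from other muscles. All 10 markers of skeletal muscle fibres were measured, with a summed level of 140900 to 165700 CPM (counts scaled to a common library size) in each library. Neutrophil and lymphocyte markers were near 0, with 2 of 9 and 2 of 10 past the filter and summed levels of at most 1.48 and 0.937 CPM. In a principal component analysis the DA ZT4 libraries lay apart on component 2 and the CTRL ZT4 libraries at the far end of component 1, while DA ZT16 and CTRL ZT16 lay near each other. DA ZT16 replicate 1 and CTRL ZT16 replicate 2 stood apart on later components, and the results were also computed without both. A field of the library names is 5 for every ZT16 library and 4 for every ZT4 library and its meaning is not given, so it cannot be told apart from time. An additive shift between its values would cancel in the interaction. Each library has its own tag in the descriptions, but the labels do not state that each is a separate animal, so p-values measure the spread between these libraries. In bulk muscle, fewer cells of a type and less RNA per cell cannot be told apart.

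**Figure D1:**
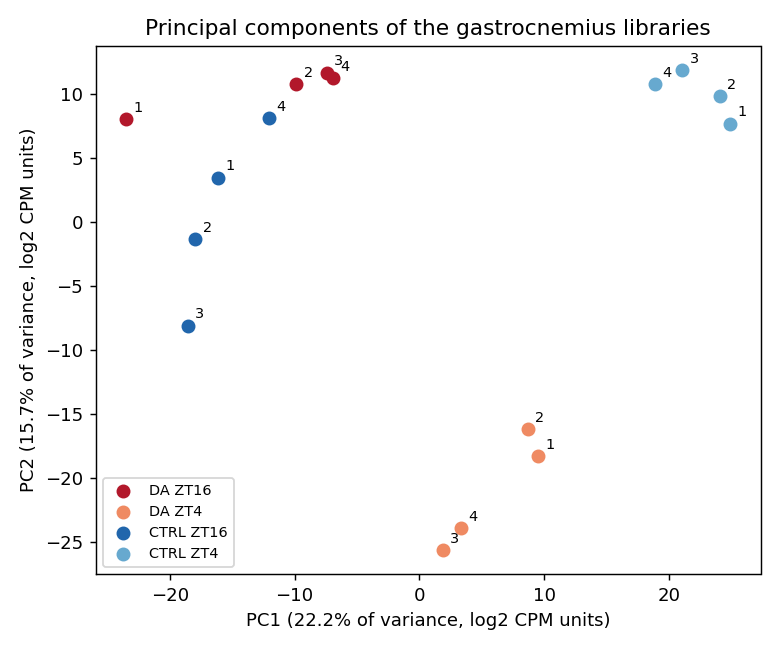
Principal components 1 and 2 of log2 CPM over the tested genes, with their share of variance in percent. Each point is 1 of the 16 libraries, numbered by replicate; the DA ZT4 libraries lie lowest on component 2, and the ZT16 libraries of both schedules share the left side.

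The time effect depended on the wheel schedule for about 1 in 10 tested genes. With edgeR's quasi-likelihood test and an adjusted p under 0.05, 1415 genes (9.74%) were called in the interaction, 736 with a negative value (5.07%) and 679 with a positive value (4.68%). Of these, 200 were negative and 103 positive by at least 2-fold. Without adjustment, 3388 of the 14523 tested genes had an interaction p under 0.05 in that test, the background for such counts below. DESeq2 called 869 genes negative and 801 positive in the interaction. ZT16 differed from ZT4 in 2159 genes under day access (14.9%; 7.7% higher and 7.17% lower) and in 2729 under night access (18.8%; 9.41% higher and 9.38% lower). At ZT4, DA and CTRL muscle differed in 1907 genes (13.1%), and at ZT16 in 82 (0.565%). The ZT16 count is the least stable of these. It was 36, 28 and 19 without DA ZT16 replicate 2, 3 or 4, 52 without DA ZT4 replicate 2, 163, 51 and 29 without CTRL ZT16 replicate 1, 2 or 3, 51 without CTRL ZT4 replicate 2, and 374 with DESeq2. The ZT4 count was 1139 and 1196 without DA ZT4 replicate 3 or 4 and 1248 without CTRL ZT4 replicate 2.

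The 1415 interaction genes divided by where the time effect was seen. A time effect was called under day access alone for 455 and under night access alone for 608. For 159 genes (1.09% of those tested) both time effects were called and ran in opposite directions, 103 (0.709%) with the level higher while the wheel was open and 56 (0.386%) with it lower. Another 64 changed in the same direction under both schedules, the size being smaller in DA muscle for 50 and larger for 14. For 129 neither time effect was called by itself. DA minus CTRL differences had opposite signs at the 2 times for 1358 of the 1415. Their median size was 0.37 at ZT4 and 0.20 at ZT16 on the log2 scale, against 0.12 and 0.085 over all tested genes. These shares and sizes describe the called genes. The interaction equals the DA minus CTRL difference at ZT16 less that at ZT4. Calling genes by it therefore favours opposite signs and larger sizes. The median interaction over all tested genes was 0.0083.

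A different set changed in the same direction between ZT4 and ZT16 under both schedules. With 2 times per schedule, a shift in the timing of a rhythm cannot be measured. For 669 genes (4.61%) both time effects were called in the same direction with no interaction call, 375 higher at ZT16 (2.58%) and 294 lower (2.02%). A missing interaction call does not show equal effects, but for 628 of the 669 the 95% interval of the interaction lay within 1 log2 unit of 0, and for 496 within 0.5. In single libraries, the 8 open and 8 closed libraries did not overlap for 89 genes (0.613%), and the 8 ZT16 and 8 ZT4 libraries did not overlap for 550 (3.79%). Across genes the time effects of the 2 schedules, which share no library, had a Pearson r of 0.20, given as a description since genes are not independent.

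**Figure D2:**
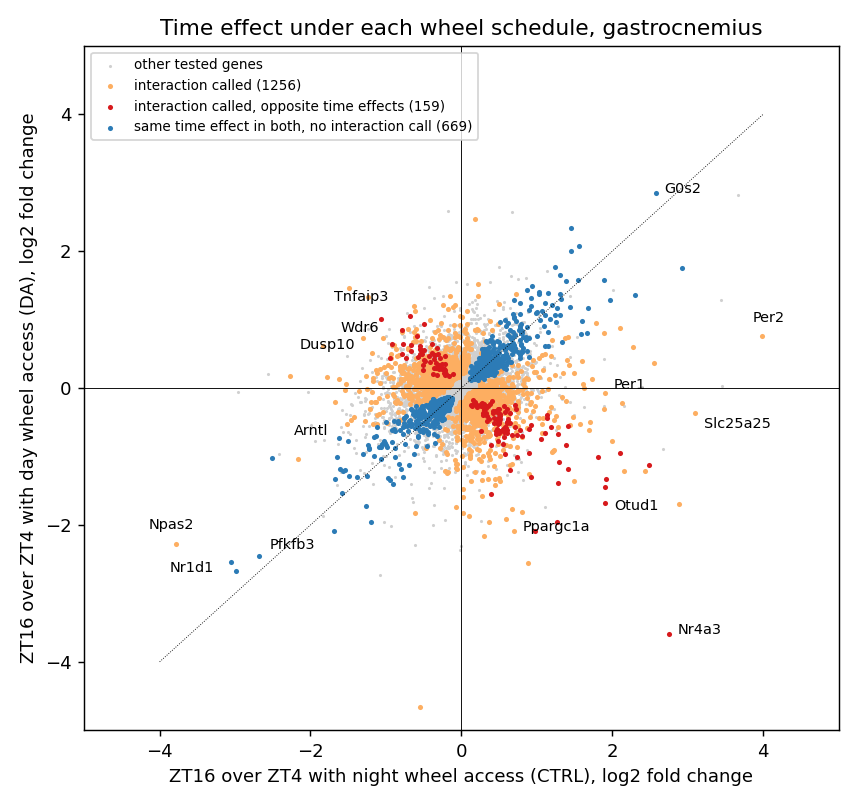
Log2 fold change of ZT16 over ZT4 for each tested gene, with day access (DA) on the vertical axis and night access (CTRL) on the horizontal axis; 2 genes lie outside the range. Colours mark the 1415 genes called in the interaction, the 159 of them with opposite time effects, and the 669 with the same time effect and no interaction call, which lie along the dotted line of equality.

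Nr4a3, which encodes the exercise-responsive nuclear receptor NOR-1, had the largest interaction among called genes with an average log2 CPM of at least 1 (gene identifier 18124, chromosome 4, 48045078 to 48086447, GRCm38.p6). Its level was 1.86, 1.12, 1.33 and 0.715 CPM in the DA ZT16 libraries and 16.7, 15.3, 10.6 and 17 CPM in DA ZT4, against 2.93, 5.92, 12 and 8.12 CPM in CTRL ZT16 and 0.824, 0.772, 0.426 and 2 CPM in CTRL ZT4. Every library taken with the wheel open was above every library taken with it closed. ZT16 over ZT4 was -3.59 in DA and 2.75 in CTRL on the log2 scale, an interaction of -6.34 (SE 0.67, adjusted p = 0.000124). Otud1, a deubiquitinase (chromosome 2, 19657731 to 19661279), did the same with less spread. It stood at 7.79, 6.22, 6.76 and 9.12 CPM in DA ZT16 and 27.1, 17.6, 30.4 and 20.6 CPM in DA ZT4, against 16.9, 19.5, 14.5 and 18.6 CPM in CTRL ZT16 and 5.31, 5.38, 4.58 and 3.43 CPM in CTRL ZT4. Open and closed libraries did not overlap, and the interaction was -3.58 (SE 0.27, adjusted p = 4.63e-06).

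Ppargc1a (chromosome 5, 51454249 to 52115853) followed the wheel unevenly. Its level was 33.1, 33, 34.1 and 34.8 CPM in DA ZT16 and 110, 142, 123 and 199 CPM in DA ZT4, against 34.5, 42.8, 73.6 and 36.5 CPM in CTRL ZT16 and 28.6, 29.9, 28.3 and 28.5 CPM in CTRL ZT4. The DA ZT4 libraries were far above all others, CTRL ZT16 lay above CTRL ZT4 in every library but overlapped DA ZT16, and the time effect was -2.09 in DA (adjusted p = 7.54e-05) and 0.70 in CTRL (adjusted p = 0.0511). The interaction was -2.79 (SE 0.32, adjusted p = 0.000256). Slc25a25, a calcium-regulated ATP-magnesium and phosphate carrier of mitochondria (chromosome 2, 32414487 to 32451470), showed the reverse imbalance. It had 39, 32.3, 23.8 and 47.2 CPM in DA ZT16 and 67.3, 28.1, 42.4 and 45.8 CPM in DA ZT4, against 58.7, 60.9, 118 and 43.2 CPM in CTRL ZT16 and 9.58, 5.32, 8.21 and 9.49 CPM in CTRL ZT4. The DA groups overlapped and CTRL ZT4 was lowest without overlap, and the interaction of -3.46 (SE 0.51, adjusted p = 0.0012) came with a time effect of -0.37 in DA and 3.10 in CTRL. The other genes among the 12 largest negative interactions, beside Per2 below, were the heat shock genes Hspa1b and Hspa1a, the stress transcription factor Atf3 (-3.07), the nuclear matrix protein gene Banp (-3.24), the potassium channel subunit gene Lrrc52 (-2.38), the arrestin-family gene Arrdc2 (-2.35) and the unnamed locus Gm5532 (-2.50). Evpl (-3.35) and Gng4 (-3.23) were also among the 6 largest interactions with opposite time effects, at mean levels under 1 CPM in every group.

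Several of the 12 smallest p-values belonged to genes with modest but tight differences, though Otud1, given above, was also among the 12. Slc9a3r2, a scaffold protein that anchors ion transporters (chromosome 17, 24639281 to 24650305), had 32.2, 31, 31.3 and 30.9 CPM in DA ZT16 and 46.8, 47.5, 46.7 and 48.1 CPM in DA ZT4, against 40.4, 49.7, 51.6 and 44 CPM in CTRL ZT16 and 27.1, 23.4, 22.5 and 26.6 CPM in CTRL ZT4. Open libraries were all above closed ones. The interaction was -1.49 (SE 0.10, adjusted p = 5.49e-08), the smallest p of any gene, with opposite time effects of -0.59 in DA and 0.90 in CTRL. Nfe2l2, the master regulator of antioxidant genes (-0.96), Lrrc8a, the volume-regulated anion channel subunit (-1.04), the growth factor receptor gene Fgfr3 (-1.96) and the small MAF factor gene Maff (-1.93) also had open and closed libraries that did not overlap. Mcf2l, a guanine nucleotide exchange factor (-1.46), and Pdxk, which makes active vitamin B6 (-1.14), had a time effect called only under night access. Atp6v1a, a subunit of the vacuolar proton pump, had one called only under day access (interaction -1.04), with means of 13.6 ± 0.373 CPM in DA ZT16 and 29.2 ± 1.49 CPM in DA ZT4, against 16.5 ± 1.49 CPM in CTRL ZT16 and 17.3 ± 0.77 CPM in CTRL ZT4 (SD, n = 4 each).

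**Figure D3:**
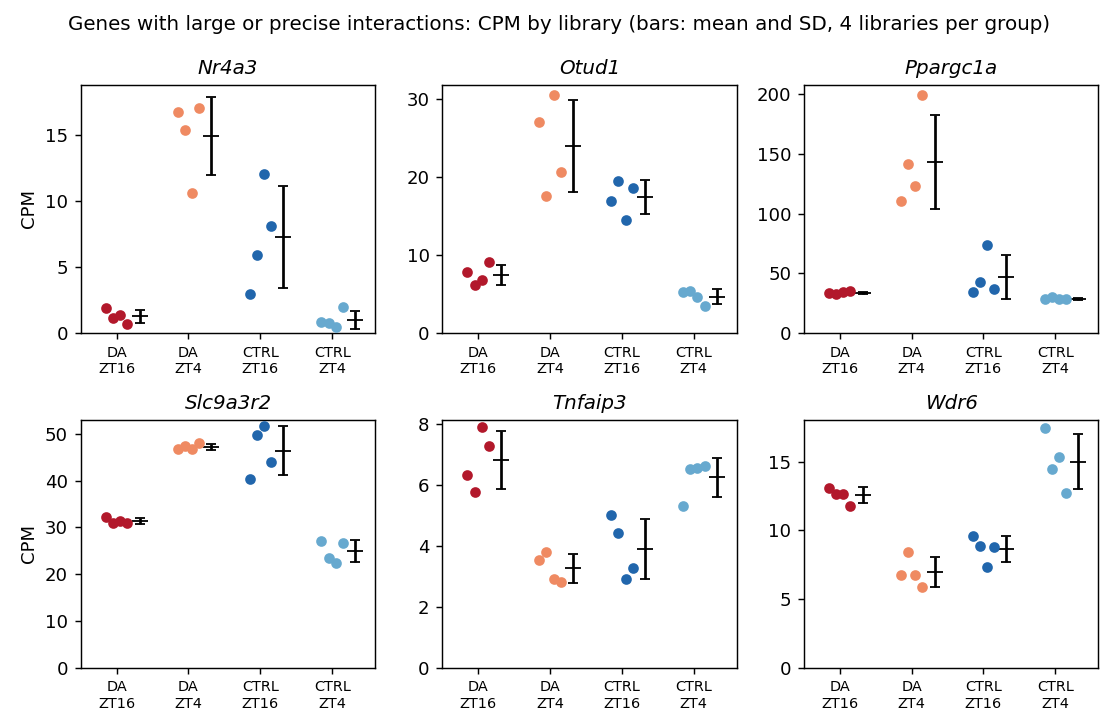
CPM of 6 interaction genes by library (points), with mean and SD to the right of each group of 4 libraries. Nr4a3, Otud1 and Slc9a3r2 are higher in DA ZT4 and CTRL ZT16 without overlap, Ppargc1a is highest in DA ZT4, and Tnfaip3 and Wdr6 are lower in DA ZT4 and CTRL ZT16.

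Genes with positive interactions were on average lower while the wheel was open, on the log2 scale, with smaller sizes. Among the 679, 56 had opposite time effects, 319 had one called in CTRL alone and 211 in DA alone. Another 26 fell at ZT16 under both schedules, so their DA level was higher with the wheel open. Wdr6, a partner in transfer RNA methylation (chromosome 9, 108572311 to 108578713), had 13.1, 12.7, 12.7 and 11.8 CPM in DA ZT16 and 6.75, 8.45, 6.72 and 5.89 CPM in DA ZT4, against 9.59, 8.88, 7.36 and 8.8 CPM in CTRL ZT16 and 17.5, 14.4, 15.4 and 12.7 CPM in CTRL ZT4. Tnfaip3, the A20 inhibitor of NF-kappa B signalling (chromosome 10, 19000910 to 19015410), had 6.33, 5.77, 7.9 and 7.29 CPM in DA ZT16 and 3.53, 3.81, 2.91 and 2.81 CPM in DA ZT4, against 5.02, 4.43, 2.92 and 3.28 CPM in CTRL ZT16 and 5.31, 6.53, 6.55 and 6.64 CPM in CTRL ZT4. For both, each closed library was above each open one, with interactions of 1.63 (SE 0.15, adjusted p = 4.35e-06) for Wdr6 and 1.74 (SE 0.22, adjusted p = 8.76e-05) for Tnfaip3. Dusp10, a phosphatase of stress kinases, had the largest positive value among called genes with an average log2 CPM of at least 1 (1.77, SE 0.38, adjusted p = 0.0116). Its level was 30.9, 35.5, 38.7 and 34 CPM in DA ZT16 and 16.5, 25.9, 20.6 and 20.8 CPM in DA ZT4, against 44.5, 36.2, 14.1 and 27.4 CPM in CTRL ZT16 and 64.9, 74.4, 62.4 and 50.7 CPM in CTRL ZT4, and CTRL ZT4 was above every other library.

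A high CTRL ZT4 group was common among the 12 largest positive interactions. Trp53i11, a p53-induced gene (1.75), stood at 5.04 ± 0.559 CPM in DA ZT16 and 4.61 ± 0.648 CPM in DA ZT4, against 4.3 ± 1.261 CPM in CTRL ZT16 and 13.3 ± 2.56 CPM in CTRL ZT4 (SD, n = 4 each). Tnfaip2 (1.70), Amigo3 (1.57), Apol10b (1.44) and Grip2 (1.37) were likewise highest there. Foxo6, a forkhead factor (1.50), and the growth arrest gene Gadd45b (1.75) had a time effect called only in DA muscle, of 1.34 for Foxo6 and 1.13 for Gadd45b. Hp, which encodes haptoglobin (1.43), was lower in every open library. Zfp512b (0.81, SE 0.063) and the junction protein gene Afdn (1.05, SE 0.10) were, with Wdr6, the positive interactions among the 12 smallest p. Endothelial markers summed to 266 to 295 CPM in DA ZT16 and 262 to 292 CPM in DA ZT4, against 251 to 319 CPM in CTRL ZT16 and 323 to 354 CPM in CTRL ZT4, where they were also highest. Of the 9 endothelial markers 2 were called in the interaction, both positive, Cldn5 (1.27) and Cdh5 (0.42), against 4.68% of all tested genes positive. Macrophage markers summed to 76.2 to 133 CPM in DA ZT16, 104 to 124 CPM in DA ZT4, 108 to 124 CPM in CTRL ZT16 and 129 to 158 CPM in CTRL ZT4, with 0 of 10 called and 1 at an unadjusted p under 0.05. The part of these cells in the positive interactions was not tested.

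Arntl, Clock and Nr1d1 changed with clock time in the same direction under both schedules. Of the 10 clock repressors, 6 were called in the interaction, against 9.74% of all tested genes. Arntl had 19.3, 16.1, 16.6 and 17.6 CPM in DA ZT16 and 31.9, 32.8, 25.7 and 28 CPM in DA ZT4, against 12.51, 17.6, 17.7 and 6.86 CPM in CTRL ZT16 and 37.5, 44.6, 34.4 and 38 CPM in CTRL ZT4. All 8 ZT16 libraries were below all 8 ZT4 libraries. The time effect was -0.77 in DA and -1.51 in CTRL, and their difference of 0.74 (SE 0.31, 95% interval 0.063 to 1.42) did not pass (adjusted p = 0.173). Clock behaved alike, at -0.61 in DA and -0.92 in CTRL (interaction 0.31, adjusted p = 0.0741), though its interaction was called at 0.35 without DA ZT16 replicate 1 and at 0.37 without CTRL ZT16 replicate 3. Npas2, a paralog of Clock at a low level, was the 1 member of 7 in this list that was called, with -2.27 in DA and -3.79 in CTRL. Its interaction was 1.52 (SE 0.41, adjusted p = 0.0233), and the call was lost on either lane alone, without DA ZT16 replicate 1 (1.40) and without CTRL ZT16 replicate 3 (1.38). Arntl2 (0.21) and the retinoid-related orphan receptor genes Rora (-0.14) and Rorb (0.32) were not called.

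Nr1d1, the repressor of Arntl, had 31, 38.6, 41.1 and 32.4 CPM in DA ZT16 and 209, 235, 202 and 184 CPM in DA ZT4, against 35.3, 23.3, 28.2 and 46.5 CPM in CTRL ZT16 and 268, 302, 277 and 267 CPM in CTRL ZT4. ZT4 was higher under both schedules without overlap, with ZT16 over ZT4 at -2.54 in DA and -3.06 in CTRL on the log2 scale. The interaction of 0.52 (95% interval 0.0083 to 1.04, adjusted p = 0.207) was called only without CTRL ZT16 replicate 4, at 0.73 (adjusted p = 0.0191). Per2 differed most among the repressors. It had 27.6, 32.4, 26.3 and 28.1 CPM in DA ZT16 and 15.9, 10.1, 18.3 and 23.4 CPM in DA ZT4, against 40.4, 36.1, 44.1 and 38.3 CPM in CTRL ZT16 and 2.8, 1.88, 2.19 and 3.04 CPM in CTRL ZT4. None of the 4 groups overlapped. ZT16 was higher under both schedules, by 0.76 in DA and 3.99 in CTRL, an interaction of -3.23 (SE 0.30, adjusted p = 4.37e-05). Per1, the other fast-responding period gene, had 23.6, 26.9, 25.6 and 22.3 CPM in DA ZT16 and 39, 17.5, 22.2 and 24.5 CPM in DA ZT4, against 56.4, 22.9, 40.7 and 72.8 CPM in CTRL ZT16 and 21.2, 10.4, 10.9 and 9.65 CPM in CTRL ZT4. Its DA groups overlapped while CTRL ZT16 lay above CTRL ZT4, and the interaction was -1.97 (SE 0.51, adjusted p = 0.0306). That call was lost without DA ZT16 replicate 2, 3 or 4, DA ZT4 replicate 1 or 4, CTRL ZT16 replicate 1, or CTRL ZT4 replicate 2, 3 or 4, with adjusted p from 0.0503 to 0.0637 and values from -2.01 to -1.70.

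The repressor list as a whole held 5 negative and 1 positive call among 10 genes, with a median of -0.43. Of all tested genes, 5.07% were negative and 4.68% positive. Beside Per2 and Per1, the negative calls were Per3 (-0.72), Nr1d2 (-0.57) and Ciart (-1.87, adjusted p = 0.0284), whose call was lost without DA ZT16 replicate 2 (-1.88) or 4 (-1.84) and without CTRL ZT4 replicate 2 (-1.70). The list had 3 negative calls without any of these 3 libraries in turn. The positive call was Bhlhe41 (DEC2), with 45.5, 43.1, 46.4 and 47 CPM in DA ZT16 and 29.6, 31.1, 28.4 and 28.2 CPM in DA ZT4, against 37.9, 29.1, 28.5 and 41.8 CPM in CTRL ZT16 and 51.1, 49.8, 57.6 and 60 CPM in CTRL ZT4. Every closed library was above every open one, and ZT16 over ZT4 was 0.63 in DA and -0.67 in CTRL, an interaction of 1.30 (SE 0.14, adjusted p = 6.82e-05). Its paralog Bhlhe40 (0.11, adjusted p = 0.81), Cry1 (0.27, adjusted p = 0.147) and Cry2 (-0.29, adjusted p = 0.079) did not pass. Cry1 was called without CTRL ZT4 replicate 4 (0.34).

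Of 12 clock output genes, 7 were negative and 1 positive, against 5.07% and 4.68% of all tested genes. Dbp, a direct output of BMAL1, was not called. It had 39.9, 54.1, 40.4 and 39.9 CPM in DA ZT16 and 38.5, 38.8, 39.3 and 51.9 CPM in DA ZT4, against 63.3, 51.1, 51.8 and 90.3 CPM in CTRL ZT16 and 49.4, 44.8, 51.4 and 50.9 CPM in CTRL ZT4. All 4 groups overlapped, and the interaction was -0.34 (95% interval -0.87 to 0.19). The related factors Hlf (-0.54) and Tef (-0.23), their antagonist Nfil3 (-0.78), the deubiquitinase gene Usp2 (-0.49), the cell cycle kinase gene Wee1 (-0.66), the glucocorticoid-induced Tsc22d3 (-1.12) and Coq10b, a coenzyme Q chaperone (-1.36), were the negative calls. Coq10b had opposite time effects, -0.69 in DA and 0.68 in CTRL, and Usp2 rose at ZT16 under both, by 0.70 in DA and 1.20 in CTRL. Wee1 lost its call on lane L001 alone (-0.59). Tef lost its call without DA ZT16 replicate 3 or 4, DA ZT4 replicate 1, 3 or 4, CTRL ZT16 replicate 1, 3 or 4, or CTRL ZT4 replicate 2 or 3, with adjusted p from 0.0546 to 0.084. Leo1 was the positive call (0.47), lower at ZT16 under both schedules (-0.51 in DA and -0.98 in CTRL). Tspan4 (0.025), Fmo2 (0.35) and Pdzrn3 (0.087) were called in both time effects in the same direction and not in the interaction. Of all tested genes, 4.61% had that pattern. Fmo2 was called in the interaction without DA ZT4 replicate 3 (0.44).

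**Figure D4:**
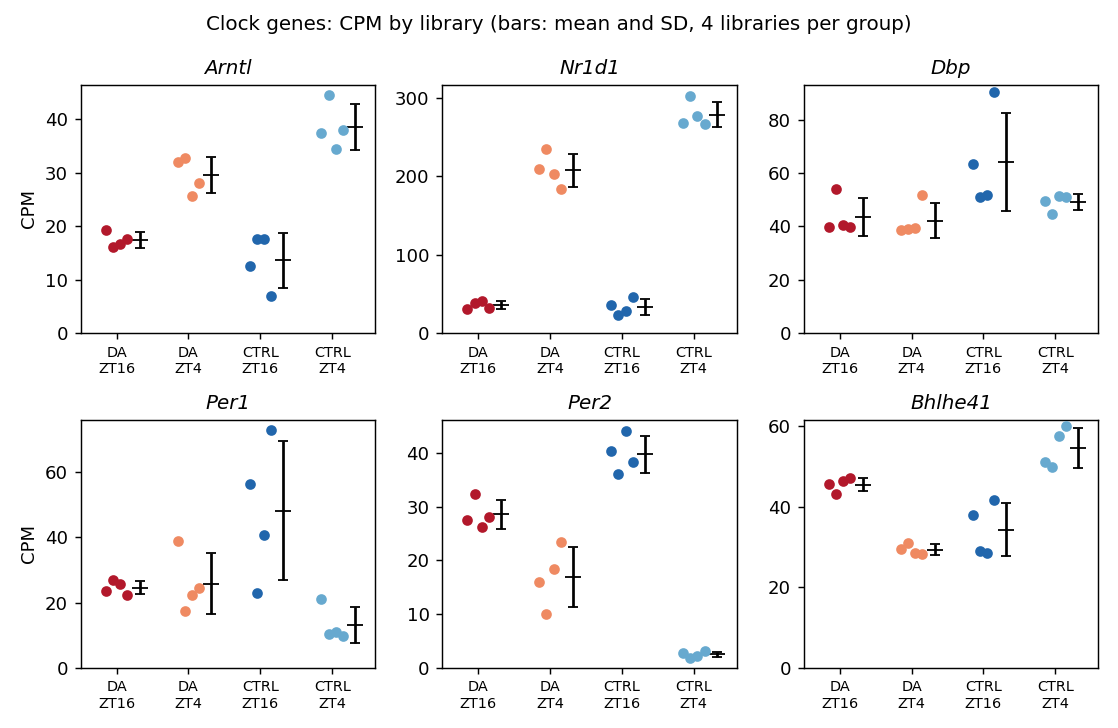
CPM of 6 clock genes by library (points), with mean and SD to the right of each group of 4 libraries. Arntl and Nr1d1 are lower at ZT16 under both schedules, Per2 differs among all 4 groups, and Bhlhe41 is lower in DA ZT4 and CTRL ZT16.

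The promoters of 6 interaction genes are shown because the letters bound by clock and activity-linked factors lie in them. They are the first 6 named genes, in order of interaction size, whose 250 bases before a RefSeq start site (GRCm38.p6) hold a searched motif on either strand. Capitals mark CACGTG (the E-box bound by BMAL1 and CLOCK), TGACGTCA (the cyclic AMP response element, CRE) or TTANGTAA (the D-box bound by DBP, HLF, TEF and NFIL3). All sequences run 5′ to 3′ on the gene's strand, and Per1 has more than 1 start site. For Slc25a25, Per1 and Maff the window lies within the gene's span, before a start site inside it.
Otud1: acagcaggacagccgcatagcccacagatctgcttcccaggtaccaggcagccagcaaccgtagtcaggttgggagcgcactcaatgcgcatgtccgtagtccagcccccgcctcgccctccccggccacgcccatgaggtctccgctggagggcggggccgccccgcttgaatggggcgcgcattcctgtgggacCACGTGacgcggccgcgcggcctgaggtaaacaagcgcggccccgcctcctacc
Slc25a25: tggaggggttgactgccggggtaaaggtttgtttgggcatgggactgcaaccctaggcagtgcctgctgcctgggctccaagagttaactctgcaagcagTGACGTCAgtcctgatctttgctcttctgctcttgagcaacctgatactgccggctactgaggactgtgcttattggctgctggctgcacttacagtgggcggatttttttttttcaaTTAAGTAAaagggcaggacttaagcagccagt
Per1: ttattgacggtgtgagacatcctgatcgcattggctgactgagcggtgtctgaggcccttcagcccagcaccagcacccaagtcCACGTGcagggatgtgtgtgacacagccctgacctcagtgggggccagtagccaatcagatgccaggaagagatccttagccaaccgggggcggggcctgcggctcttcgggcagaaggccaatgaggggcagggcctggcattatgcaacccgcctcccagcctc
Maff: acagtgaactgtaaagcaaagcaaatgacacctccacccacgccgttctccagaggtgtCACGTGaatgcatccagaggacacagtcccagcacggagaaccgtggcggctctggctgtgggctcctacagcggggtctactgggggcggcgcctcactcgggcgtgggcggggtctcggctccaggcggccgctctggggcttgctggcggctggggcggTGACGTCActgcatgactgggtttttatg
Ciart: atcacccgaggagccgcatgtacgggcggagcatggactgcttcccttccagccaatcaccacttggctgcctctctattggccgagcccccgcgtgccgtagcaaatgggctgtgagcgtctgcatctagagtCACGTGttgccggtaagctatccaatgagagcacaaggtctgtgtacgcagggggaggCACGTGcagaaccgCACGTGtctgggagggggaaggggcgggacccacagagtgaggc
Gadd45b: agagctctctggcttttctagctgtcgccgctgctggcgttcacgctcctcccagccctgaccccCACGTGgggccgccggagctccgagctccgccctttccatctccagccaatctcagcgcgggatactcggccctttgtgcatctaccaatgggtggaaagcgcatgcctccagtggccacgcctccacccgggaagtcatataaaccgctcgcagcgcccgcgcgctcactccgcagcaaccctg

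Otud1 (chr2:19657481-19657730, plus strand), Per1 (chr11:69098699-69098948, plus strand) and Gadd45b (chr10:80929841-80930090, plus strand) hold 1 E-box each. Slc25a25 (chr2:32424067-32424316, minus strand) holds a CRE and a D-box. Maff (chr15:79347270-79347519, plus strand) holds an E-box and a CRE, and Ciart (chr3:95882229-95882478, minus strand) holds 3 E-boxes. Otud1, Maff, Ciart, Slc25a25 and Per1 had negative interactions and Gadd45b a positive one. An E-box was held by 12.52% of the 567 negative and 10.54% of the 541 positive interaction genes with a window, against 9.63% of all 11459 tested genes with one. A CRE was found in 4.41% of negative and 1.48% of positive genes, against 2.81% of all, and the AP-1 motif TGANTCA in 7.41% of negative and 4.99% of positive genes, against 5.77% of all. The D-box stood in 2.29% of negative and 0.739% of positive genes, against 1.68% of all, and the ROR element, searched by its consensus, in 0% of negative and 0.37% of positive genes, against 0.489% of all. These are matches of letters, given as a description.

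The 669 genes with time effects in the same direction and no interaction call were ranked by mean time effect. The 6 highest and 6 lowest included genes of fat storage, glycolysis and matrix turnover. G0s2, an inhibitor of fat breakdown, had 91.8, 65.3, 37.8 and 54.7 CPM in DA ZT16 and 5.07, 8.58, 9.62 and 11.5 CPM in DA ZT4, against 55.1, 74.5, 61.5 and 16.2 CPM in CTRL ZT16 and 7.67, 9.45, 12.49 and 5.46 CPM in CTRL ZT4. It was higher at ZT16 in every library, by 2.85 in DA and 2.57 in CTRL, with a wide interval on the interaction (-1.11 to 1.65). Mid1ip1, an activator of acetyl-CoA carboxylase, rose at ZT16 by 2.07 in DA and 1.56 in CTRL, and Angptl7, Lrtm2, Prima1 and Zfp503 completed the 6 highest. Angptl7 (interaction -0.95, adjusted p = 0.0858) was called in the interaction by DESeq2, without DA ZT16 replicate 1 (-1.12) and without CTRL ZT4 replicate 1 (-1.15). Pfkfb3, a driver of glycolytic flux, had 97.5, 125, 233 and 67.4 CPM in DA ZT16 and 714, 686, 609 and 846 CPM in DA ZT4, against 163, 163, 68.6 and 94.2 CPM in CTRL ZT16 and 898, 709, 742 and 785 CPM in CTRL ZT4. It was lower at ZT16 in every library, with time effects of -2.45 in DA and -2.68 in CTRL (interaction 0.23, 95% interval -0.84 to 1.31). Angptl4, an inhibitor of lipoprotein lipase (-2.67 in DA, -2.99 in CTRL), Pck1 (-1.95, -1.20), the fibrillin gene Fbn1 (-1.32, -1.67) and the gelatinase gene Mmp9 (-1.18, -1.60) fell at ZT16 under both schedules, as did Nr1d1. Of 24 genes of ribosome biogenesis and Myc, 8 rose at ZT16 in DA and 11 in CTRL, against 7.7% and 9.41% of all tested genes. The shared pattern held 7 of them, against 4.61% of all tested genes. In the interaction 1 of the 24 was called, negative, a share close to the 5.07% of all tested genes.

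**Figure D5:**
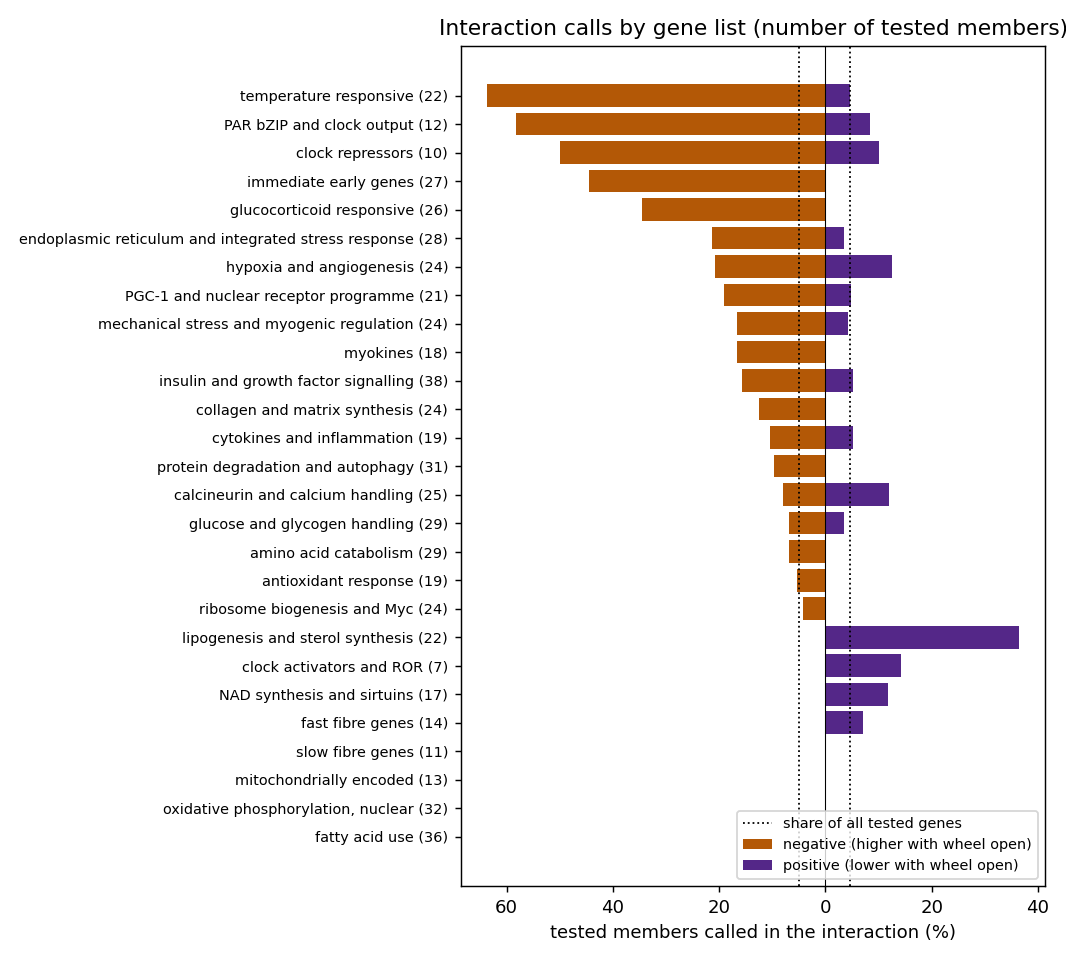
Share of tested members (percent) of 27 gene lists with a negative (left) or positive (right) interaction call, with the number of tested members in brackets. Dotted lines give the shares of all tested genes, 5.07% negative and 4.68% positive; temperature responsive genes have the longest bar on the left and lipogenesis and sterol synthesis on the right.

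Temperature responsive genes, which cells induce on heat or cold, had the largest share of negative calls among the 27 lists. Of 22, 14 were negative and 1 positive (median -0.42), against 5.07% and 4.68% of all tested genes. Without any 1 library the negative count ran from 13 to 16. Hspa1b, the inducible HSP70, averaged 5.12 ± 1.17 CPM in DA ZT16 and 11.1 ± 2.24 CPM in DA ZT4, against 15.8 ± 6.45 CPM in CTRL ZT16 and 2.82 ± 0.542 CPM in CTRL ZT4 (SD, n = 4 each). Its interaction was -3.61 (SE 0.42, adjusted p = 0.000234) and that of Hspa1a -3.05. The 2 genes are near-identical and reads between them are divided by a model, so neither is certain as a single gene. Hsp90aa1 (-1.49), an HSP90 gene, and its partner Dnaja1 (-1.34) followed. Hsp90aa1 in CTRL ZT16 was uneven, at 51, 81.5, 79.5 and 39.5 CPM, beside 36.6, 35.2, 35.2 and 37.1 CPM in CTRL ZT4. The positive call, a share close to the 4.68% of all tested genes, was Cirbp, the cold-inducible RNA-binding protein, singled out after its values were seen. It averaged 37.9 ± 2.88 CPM in DA ZT16 and 29.3 ± 0.495 CPM in DA ZT4, against 34.8 ± 3.81 CPM in CTRL ZT16 and 35 ± 1.83 CPM in CTRL ZT4 (SD, n = 4 each), and its interaction was 0.38 (adjusted p = 0.0154), with a time effect called in DA alone (0.37) and not in CTRL (-0.006).

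Immediate early genes are the first to respond when a cell is stimulated. They had 12 negative and 0 positive calls among 27 tested genes (median -0.63), against 5.07% and 4.68% of all tested genes. At an unadjusted p under 0.05, 14 passed in either direction, and DESeq2 called 13 negative and 0 positive. At ZT16, 9 fell and 1 rose in DA, while 12 rose and 1 fell in CTRL. Of all tested genes, 7.17% fell and 7.7% rose in DA, and 9.41% rose and 9.38% fell in CTRL. Maff, Nr4a3 and Atf3 were given above. Zfp36, an mRNA decay factor, had opposite time effects of -0.30 in DA and 0.61 in CTRL (interaction -0.92), with no overlap between open and closed libraries. Ier5 had a time effect of -0.046 in DA (adjusted p = 0.846) and rose at ZT16 in CTRL by 1.07, for an interaction of -1.11.

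In the PGC-1 and nuclear receptor list 4 of 21 genes were negative and 1 positive (median -0.09), against 5.07% and 4.68% of all tested genes. Beside Ppargc1a the negative calls were the corepressor gene Nrip1 (-1.09), Ppara, the receptor that drives fat oxidation (-1.90), and Pparg (-0.94). Ppara averaged 30.5 ± 5.07 CPM in DA ZT16 and 40.9 ± 9.13 CPM in DA ZT4, against 46.1 ± 11.9 CPM in CTRL ZT16 and 16.5 ± 2.02 CPM in CTRL ZT4 (SD, n = 4 each). Nrip1 rose at ZT16 under both schedules, by 0.81 in DA and 1.90 in CTRL. Rxrg was the positive call (0.24, adjusted p = 0.0487), and it held without DA ZT16 replicate 2, DA ZT4 replicate 1 or CTRL ZT4 replicate 4 and was lost without any other library, with adjusted p up to 0.11.

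Genes of fat oxidation and respiration, which PGC-1 alpha and the PPARs are known to raise, had no edgeR call. As background, 3388 of all 14523 tested genes had an unadjusted interaction p under 0.05. Of 36 genes of fatty acid use, 0 were called in the interaction, with 11 at an unadjusted p under 0.05, a median of -0.19, and 3 negative calls by DESeq2. Without DA ZT16 replicate 1 or CTRL ZT4 replicate 4 there were 3 negative calls, and without DA ZT4 replicate 1 there were 2. Of 32 nuclear genes of oxidative phosphorylation, 0 were called, with 2 at an unadjusted p under 0.05 and 1 by DESeq2, and there was 1 negative call without DA ZT16 replicate 1 and 2 without DA ZT4 replicate 1. Of 13 mitochondrially encoded genes, 0 were called by edgeR or DESeq2 and 0 reached an unadjusted p under 0.05. In glucose and glycogen handling, the kinase genes Pfkfb2 (-1.08) and Hk2, which traps glucose in the cell (-0.74), were the 2 negative calls of 29 genes, a share close to the 5.07% of all tested genes. Hk2 averaged 372 ± 28.1 CPM in DA ZT16 and 402 ± 67 CPM in DA ZT4, against 437 ± 33.4 CPM in CTRL ZT16 and 283 ± 16.6 CPM in CTRL ZT4 (SD, n = 4 each). The positive call, the pyruvate dehydrogenase phosphatase gene Pdp1 (0.61, adjusted p = 0.0295), was lost without DA ZT16 replicate 2 or 3, DA ZT4 replicate 2 or 4, CTRL ZT16 replicate 2 or 3, or CTRL ZT4 replicate 2 or 3, with adjusted p up to 0.0641.

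Lipid synthesis ran the other way. Of 22 genes of lipogenesis and sterol synthesis, 8 were positive and 0 negative (median 0.33), against 4.68% and 5.07% of all tested genes. At an unadjusted p under 0.05 there were 13 in either direction, and DESeq2 called 9 positive and 0 negative. Insig1, the sterol sensor partner, had 12.1, 11.6, 11.8 and 13.5 CPM in DA ZT16 and 13.7, 13.8, 13.3 and 12.2 CPM in DA ZT4, against 9.02, 8.44, 7.71 and 8.88 CPM in CTRL ZT16 and 16.9, 16.5, 19 and 15.2 CPM in CTRL ZT4. CTRL ZT16 was lowest and CTRL ZT4 highest, with the DA groups between them, and the interaction was 0.87 (SE 0.10, adjusted p = 3.9e-05). Fads1, a fatty acid desaturase (0.89), and Sqle, squalene epoxidase (2.45), were also positive. Sqle was at a low level, with means of 0.838 ± 0.144 CPM in DA ZT16, 0.748 ± 0.206 CPM in DA ZT4, 0.489 ± 0.0978 CPM in CTRL ZT16 and 2.37 ± 1.04 CPM in CTRL ZT4 (SD, n = 4 each). Over the list, 3 genes rose and 0 fell at ZT16 in DA, while 10 fell and 1 rose in CTRL, against 7.7% of all tested genes higher and 7.17% lower in DA and 9.38% lower and 9.41% higher in CTRL.

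Glucocorticoid responsive genes had 9 negative and 0 positive calls among 26 (median -0.68), against 5.07% and 4.68% of all tested genes. Of the negative calls, Tsc22d3 and Per1 were also counted in the clock lists above. At an unadjusted p under 0.05 there were 13 genes of the list, and DESeq2 called 12 negative and 0 positive. At ZT16, 3 rose and 6 fell in DA, against 7.7% and 7.17% of all tested genes. In CTRL, 14 rose and 1 fell, against 9.41% and 9.38% of all tested genes. Klf15, a regulator of amino acid use, had 42.8, 35.3, 33.5 and 30.8 CPM in DA ZT16 and 65.9, 55.8, 60 and 62.2 CPM in DA ZT4, against 43.8, 41.3, 57.2 and 45.7 CPM in CTRL ZT16 and 38.4, 34.6, 34.6 and 26.2 CPM in CTRL ZT4. DA ZT4 was above DA ZT16 and CTRL ZT16 above CTRL ZT4 in every library, with an interaction of -1.27 (SE 0.18, adjusted p = 0.000715). Tsc22d3 had 221, 198, 188 and 237 CPM in DA ZT16 and 207, 152, 172 and 190 CPM in DA ZT4, against 272, 243, 337 and 222 CPM in CTRL ZT16 and 108, 102, 106 and 106 CPM in CTRL ZT4. The CTRL ZT4 libraries were lowest and close together. Sesn1 (-1.004), a stress-induced inhibitor of mTORC1, and the forkhead gene Foxo3 (-0.73) were also negative.

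In the endoplasmic reticulum and integrated stress response list, 6 of 28 genes were negative and 1 positive (median -0.16), against 5.07% negative and 4.68% positive of all tested genes. The positive call was lost when any 1 of 10 of the 16 libraries was left out. The 4 with the smallest p were the chaperone genes Hspa5 (-0.39), Hsp90b1 (-0.39) and Dnajb9 (-0.44), and Manf (-0.71), a secreted stress factor. Hspa5 averaged 146 ± 5.49 CPM in DA ZT16 and 169 ± 3.44 CPM in DA ZT4, against 149 ± 7.08 CPM in CTRL ZT16 and 131 ± 8.82 CPM in CTRL ZT4 (SD, n = 4 each). Protein degradation and autophagy had 3 negative and 0 positive calls of 31, against the same shares of all tested genes. At an unadjusted p under 0.05 there were 9, against 3388 of all 14523, and DESeq2 called 3 negative and 1 positive. The negative edgeR calls were Gabarapl1, an autophagosome protein (-1.22, no overlap between open and closed libraries), the ubiquitin ligase gene Fbxo30 (-0.60) and the cathepsin gene Ctsl (-0.21). Ctsl lost its call on lane L002 alone, with the slow fibre score as a covariate, and without DA ZT16 replicate 2 or 4, DA ZT4 replicate 3 or 4, CTRL ZT16 replicate 1, 2 or 3, or CTRL ZT4 replicate 1, 2 or 4 (adjusted p up to 0.0717).

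The mechanical stress and myogenic list had 4 negative and 1 positive call among 24 genes (median -0.21), against 5.07% negative and 4.68% positive of all tested genes. The positive call was lost when any 1 of 6 of the 16 libraries was left out. There were 2 positive calls without CTRL ZT16 replicate 4 or CTRL ZT4 replicate 4. The smallest p belonged to Ccn2 (CTGF), a target of the YAP pathway. Ccn2 had 12.7, 17.2, 13.6 and 13.4 CPM in DA ZT16 and 21.8, 20, 22.6 and 30.6 CPM in DA ZT4, against 24.1, 23.9, 30.9 and 29 CPM in CTRL ZT16 and 14.7, 14.4, 12.3 and 10.7 CPM in CTRL ZT4, with open libraries all above closed ones and an interaction of -1.79 (SE 0.21, adjusted p = 0.000145). Xirp1, an actin-binding repair protein (-1.30), and Myf6, a myogenic factor (-0.53), followed. Of 24 hypoxia and angiogenesis genes, 5 were negative and 3 positive, against the same shares of all tested genes. Their median was 0.21, against the sign of the larger count, and 5 were positive without CTRL ZT16 replicate 2. Vegfa, the main vessel growth factor (-0.74), its receptor gene Flt1 (-0.34) and Ednrb (-0.84) were negative and the Notch ligand gene Dll4 (0.57) positive. Vegfa averaged 205 ± 14.5 CPM in DA ZT16 and 295 ± 32.3 CPM in DA ZT4, against 243 ± 44.8 CPM in CTRL ZT16 and 209 ± 14.4 CPM in CTRL ZT4 (SD, n = 4 each). In collagen and matrix synthesis, 3 of 24 were negative and 0 positive, against the same shares of all tested genes. At an unadjusted p under 0.05 there were 7, against 3388 of all 14523, and DESeq2 called 3 negative and 1 positive. The negative edgeR calls were the elastin gene Eln (-1.21), the collagen chaperone gene Serpinh1 (-1.05) and P4ha1 (-0.64), a collagen hydroxylase. The P4ha1 call was lost without DA ZT4 replicate 4 (adjusted p = 0.0503).

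Fibre type genes were not called in the interaction apart from 1 positive call among the 14 fast fibre genes, against 4.68% of all tested genes. That call was lost when any 1 of 11 of the 16 libraries was left out. Of 11 slow fibre genes, 0 were called by edgeR or DESeq2 and 0 reached an unadjusted p under 0.05, although their median interaction was -0.68. Their mean log2 CPM varied widely within groups, from 5.27 to 6.48 in DA ZT16 and 5.29 to 7.02 in DA ZT4, against 6.27 to 6.87 in CTRL ZT16 and 5.22 to 6.54 in CTRL ZT4. With that score as a covariate, 1147 genes were called in the interaction.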

How the data were processed

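Messenger RNA of 16 gastrocnemius libraries was used, 4 in each of the DA ZT16, DA ZT4, CTRL ZT16 and CTRL ZT4 groups. Per the labels' protocols, RNA came from snap-frozen muscle and libraries from a stranded mRNA kit. The authors deposited estimated counts per gene, 1 column for each of the 2 lanes of a library. The submitters' processing notes list kallisto 0.46.2, bcl2fastq 2.20.0.422 and DESeq2 1.26.0, and name mm10 and GRCm38.p6 as builds. For the step from transcripts to genes the method is not given in the sources used. kallisto divides reads shared by transcripts by a model, so near-identical genes are uncertain.

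Lane columns were added per library and rounded to whole counts. Of 23621 genes, 23614 matched the RefSeq gene table of GRCm38.p6, and the 7 others held 0.00139% of the counts. All 16 libraries entered 1 fit with edgeR 4.0.16 (limma 3.58.1, R 4.3.3): default filter on low counts (minimum count 10), TMM scaling, robust quasi-likelihood test, and Benjamini-Hochberg adjustment over 14523 genes. A call is an adjusted p under 0.05, and adjusted p-values are of this test except where DESeq2 1.42.0 is named. Contrasts were the interaction, ZT16 over ZT4 within each schedule, and DA over CTRL at each time. Fold changes are log2 values with standard errors, and levels are CPM on TMM-scaled totals, which compare a gene between libraries and not genes with each other. Every pair of replicates differed by more than sampling noise.

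Genes named are the 12 largest positive and 12 largest negative interactions and the 12 smallest p among called genes with an average log2 CPM of at least 1, the 6 largest with opposite time effects, the 6 highest and 6 lowest mean time effects shared by both schedules, every gene of 3 clock lists, and up to 4 by p from each other list described. Some genes that these rules name are not reported here. The contrast and the 27 gene lists and 12 marker lists were chosen with earlier results of these data known. Alternatives were DESeq2's size factors and test, no low-count filter, either lane alone, a replicate block, a slow fibre covariate, each schedule fitted alone, other thresholds and leaving out each library. One more, leaving out DA ZT16 replicate 1 and CTRL ZT16 replicate 2 together, was chosen after seeing the data.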

Additional observations from a re-analysis of the deposited data

Results flagged for a closer look

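The difference between the time effects of the 2 schedules was itself tested by the interaction, and 1415 genes passed with edgeR. Those named above are collected here with their log2 interactions. The strongest negative ones, all higher on average while the wheel was open, were Nr4a3 (-6.34), Hspa1b (-3.61), Otud1 (-3.58), Slc25a25 (-3.46), Evpl (-3.35), Banp (-3.24), Gng4 (-3.23), Per2 (-3.23), Atf3 (-3.07), Hspa1a (-3.05), Ppargc1a (-2.79), Gm5532 (-2.50), Lrrc52 (-2.38) and Arrdc2 (-2.35). Negative values of intermediate size belonged to Per1 (-1.97), Fgfr3 (-1.96), Maff (-1.93), Ppara (-1.90), Ciart (-1.87), Ccn2 (-1.79), Hsp90aa1 (-1.49), Slc9a3r2 (-1.49), Mcf2l (-1.46), Coq10b (-1.36), Dnaja1 (-1.34), Xirp1 (-1.30), Klf15 (-1.27), Gabarapl1 (-1.22), Eln (-1.21), Pdxk (-1.14), Tsc22d3 (-1.12), Ier5 (-1.11), Nrip1 (-1.09), Pfkfb2 (-1.08), Serpinh1 (-1.05), Atp6v1a (-1.04), Lrrc8a (-1.04) and Sesn1 (-1.004). Smaller negative values belonged to Nfe2l2 (-0.96), Pparg (-0.94), Zfp36 (-0.92), Ednrb (-0.84), Nfil3 (-0.78), Hk2 (-0.74), Vegfa (-0.74), Foxo3 (-0.73), Per3 (-0.72), Manf (-0.71), Wee1 (-0.66), P4ha1 (-0.64), Fbxo30 (-0.60), Nr1d2 (-0.57), Hlf (-0.54), Myf6 (-0.53), Usp2 (-0.49), Dnajb9 (-0.44), Hspa5 (-0.39), Hsp90b1 (-0.39), Flt1 (-0.34), Tef (-0.23) and Ctsl (-0.21). Positive values of 1 log2 unit or more belonged to Sqle (2.45), Dusp10 (1.77), Trp53i11 (1.75), Gadd45b (1.75), Tnfaip3 (1.74), Tnfaip2 (1.70), Wdr6 (1.63), Amigo3 (1.57), Npas2 (1.52), Foxo6 (1.50), Apol10b (1.44), Hp (1.43), Grip2 (1.37), Bhlhe41 (1.30), Cldn5 (1.27) and Afdn (1.05). Smaller positive values belonged to Rxrg (0.24), Cirbp (0.38), Cdh5 (0.42), Leo1 (0.47), Dll4 (0.57), Pdp1 (0.61), Zfp512b (0.81), Insig1 (0.87) and Fads1 (0.89).

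Single libraries stood far from the other 3 of their group in 25 of 452 groups of 4 checked, where chance gives about 1 in 20. In DA ZT16, replicate 1 had Mid1ip1 at 84.4 CPM (others 66 to 68), Fbn1 at 16.9 CPM (others 24.5 to 25.5), Zfp36 at 6.66 CPM (others 8.19 to 8.44) and Hsp90b1 at 73.3 CPM (others 81.3 to 82.7), replicate 2 had Dbp at 54.1 CPM (others 39.9 to 40.4), and replicate 3 had Hk2 at 330 CPM (others 383 to 390). In DA ZT4, replicate 1 had Flt1 at 41.8 CPM (others 42.8 to 43), replicate 2 had Hspa5 at 164 CPM (others 170 to 171), and replicate 4 had Ciart at 5.59 CPM (others 2.58 to 2.94), Cry2 at 49.4 CPM (others 38.8 to 39.4) and Dbp at 51.9 CPM (others 38.5 to 39.3). In CTRL ZT16, replicate 1 had Lrrc8a at 18.1 CPM (others 20.7 to 20.9), replicate 2 had Xirp1 at 223 CPM (others 157 to 165), Myf6 at 81.3 CPM (others 87.6 to 88.5) and Dnajb9 at 20.3 CPM (others 22.7 to 23), replicate 3 had Maff at 3.68 CPM (others 2.48 to 2.62), and replicate 4 had Gm5532 at 3.25 CPM (others 5.31 to 5.37), Wee1 at 4.99 CPM (others 3.86 to 3.94) and Zfp36 at 10.6 CPM (others 11.6 to 11.8). In CTRL ZT4, replicate 1 had Tnfaip3 at 5.31 CPM (others 6.53 to 6.64) and Per1 at 21.2 CPM (others 9.65 to 10.9), replicate 2 had Clock at 33.2 CPM (others 29.7 to 30.3), and replicate 3 had Zfp512b at 31.3 CPM (others 29.4 to 29.7) and Fgfr3 at 1.7 CPM (others 2.23 to 2.3). The total of CTRL ZT4 replicate 4, 70033331 estimated counts, was above the 45010631 to 46866454 of its group.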

How the results depend on the processing

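Of the 86 reported genes called in the interaction, 77 kept the call in each of the 24 alternatives that tested them. In at least 1 alternative, 9 lost it (Per1, Ciart, Npas2, Tef, Wee1, Rxrg, Pdp1, Ctsl and P4ha1), and 0 changed sign. On either lane alone, not every reported gene passed the filter on low counts. Interaction calls numbered 1398 with DESeq2's size factors, 1670 with its test, 1258 with no filter on low counts, 1014 and 1023 on lane L001 and L002, 1147 with the slow fibre covariate and 1443 without DA ZT16 replicate 1 and CTRL ZT16 replicate 2. With 1 library left out, they ran from 1021 to 1567, positive calls from 465 to 760, negative calls from 553 to 827, day-access time calls from 1682 to 2369, night-access time calls from 1969 to 2904, calls of the mean time effect from 2692 to 3138, same-direction calls from 530 to 649 and opposite-direction calls from 116 to 209. DA over CTRL calls ran from 1139 to 2105 at ZT4 and from 19 to 163 at ZT16, and DESeq2 called 374 at ZT16. Without the 2 libraries that stood apart, 2355 genes were called at ZT4. Opposite-direction genes numbered 105 on lane L001, 45 at a threshold of 0.01 and 281 at 0.1, positive interactions 452 on lane L002, and same-direction genes 338 at 0.01. Lower depth and stricter thresholds give fewer calls by construction, and the cause of the other shifts was not tested.

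Interactions that changed sign were all uncalled. Zfp503 was -0.021 with the replicate block, -0.40 without DA ZT16 replicate 1, -0.0095 without DA ZT4 replicate 4, -0.085 without CTRL ZT16 replicate 4 and -0.30 without the 2 libraries that stood apart. Tspan4 was -0.045 without DA ZT16 replicate 2, -0.040 without DA ZT4 replicate 1, -0.036 and -0.029 without CTRL ZT16 replicate 2 or 3, -0.047 without CTRL ZT4 replicate 4, -0.071 on lane L002 and -0.0079 without the 2 libraries. Without DA ZT16 replicate 3, Pfkfb3 was -0.21 and Bhlhe40 -0.016. G0s2 was -0.030 without CTRL ZT16 replicate 4, and Angptl4 -0.28 without CTRL ZT4 replicate 4 and -0.068 with the slow fibre covariate. With 1 library left out, the highest values were 0.24 for Zfp503, 0.11 for Tspan4, 0.45 for Pfkfb3 (0.52 without the 2 libraries that stood apart), 0.23 for Bhlhe40, 0.50 for G0s2 and 0.74 for Angptl4.

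Replicate numbers were not taken to pair the libraries, since not every same-number pair had a correlation of deviations over 0.1: over 24 pairs it ran from -0.135 to 0.152 and passed 0.1 in 3, all between DA ZT4 and CTRL ZT4, and 10 of 16 libraries correlated best with their own number, a hint from the data and not the design. The replicate block gave 1349 interaction calls, and under it Rxrg (0.24), Pdp1 (0.61) and P4ha1 (-0.64) lost the call.

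Counts near the filter limit what can be called: Evpl, Gng4, Npas2 and Sqle rest on few reads. None of the groups lacked a wheel, so effects of having one are not measured.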
